A study of Mus musculus with 14 samples.

Results

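The 10 transcripts described here are 6 subunits of the AP-1 family of transcription factors (Fos, Fosb, Fosl2, Jun, Junb and Atf3) and 4 other immediate early genes (Egr1, Ier2, Btg2 and Dusp1). They were chosen by name and read from the table of estimated counts, where all 10 of 10 were found among 55291 symbols and all 10 were among the 21761 genes that passed the filter on low counts. The RNA came from tibia of wild-type female C57Bl/6 mice. After ovariectomy (OVX), 3 libraries came from mice on hippuric acid, called OVX-HA, 2 from mice on 3-(3-hydroxyphenyl)propionic acid, called OVX-PPA, 3 from mice on the bisphosphonate zoledronic acid, called OVX-ZA, and 3 from mice on PBS, called OVX-PBS. Another 3 came from mice with sham surgery. Treatment began 2 to 4 days after surgery and lasted 8 weeks. Doses and ages, and the agent used in sham mice, could not be read from the labels, which also leave unstated whether libraries and animals match 1 to 1. Error terms therefore measure the spread between these samples, which may be technical in part.

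Immediate early genes are switched on within minutes of a stimulus, before any new protein is made, when kinases of the MAP kinase cascades reach transcription factors already bound to their promoters. AP-1 is a dimer held together by leucine zippers, made of a JUN protein with a FOS, JUN or ATF partner. In bone it acts in both arms of remodelling: mice without Fos form no osteoclasts, and Fosl2, Fosb and Junb have been tied to osteoblast or osteoclast function in mouse models. Growth factors, mechanical load, estrogen and tissue handling are all known inducers of these genes, so a level in whole tibia is a reading at the time of collection.

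The promoters are shown because members that share an inducible element could be read together. A start site from RefSeq (GRCm38.p6, the assembly that mm10 names) was available here for 8 of the 10 members, and not for Egr1 and Ier2. The 250 bases before it are printed 5′ to 3′ for 3 members with a cyclic AMP response element or its core and for Jun. The Jun window had no exact match to either, although it holds the similar tgacatca. Capitals mark the core TGACG on either strand; where both strands overlap in the full element TGACGTCA, all of it is in capitals.
Fos, chr12:85473640-85473889, + strand: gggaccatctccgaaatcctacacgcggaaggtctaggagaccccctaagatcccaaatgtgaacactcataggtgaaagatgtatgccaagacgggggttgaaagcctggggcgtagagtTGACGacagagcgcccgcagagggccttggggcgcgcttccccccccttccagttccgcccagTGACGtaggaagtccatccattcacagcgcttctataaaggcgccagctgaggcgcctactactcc
Dusp1, chr17:26508473-26508722, - strand: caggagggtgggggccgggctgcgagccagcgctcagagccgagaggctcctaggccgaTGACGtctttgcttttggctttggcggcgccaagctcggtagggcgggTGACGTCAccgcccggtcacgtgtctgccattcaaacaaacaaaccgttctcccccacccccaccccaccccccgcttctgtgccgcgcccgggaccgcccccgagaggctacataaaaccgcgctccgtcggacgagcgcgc
Btg2, chr1:134079156-134079405, - strand: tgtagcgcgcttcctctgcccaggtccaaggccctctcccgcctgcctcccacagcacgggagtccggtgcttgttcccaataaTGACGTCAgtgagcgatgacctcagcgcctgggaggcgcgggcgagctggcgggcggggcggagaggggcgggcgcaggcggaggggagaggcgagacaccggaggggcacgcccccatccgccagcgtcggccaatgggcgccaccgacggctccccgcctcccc
Jun, chr4:95052223-95052472, - strand: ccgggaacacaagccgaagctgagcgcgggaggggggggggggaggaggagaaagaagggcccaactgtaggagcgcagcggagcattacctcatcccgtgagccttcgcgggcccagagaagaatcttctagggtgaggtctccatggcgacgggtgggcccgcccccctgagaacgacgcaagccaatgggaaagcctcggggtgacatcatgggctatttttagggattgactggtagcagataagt

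The core TGACG stood in 6 of the 8 member promoters (Fos, Fosb, Junb, Dusp1, Atf3 and Btg2), and in 17.8% of 32851 mouse promoters of the same length. The full element TGACGTCA stood in Dusp1 (from position -143, counted back from the start site) and in Btg2 (from -166), against 1.55% of all promoters. In Fos the core began at -129 and -66, and a TATAAA sequence followed at -33. The AP-1 element TGANTCA (6.75% of all promoters) and the CArG box bound by serum response factor (1.47%) were found in none of the 8 windows, searched on both strands. These are exact letter matches in short windows. Sites farther from the gene were not searched, so a window without a match does not show that the gene lacks the site.

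Levels were compared between genes as CPM per kilobase of merged exons, where CPM is the count scaled to library depth and, by TMM, to library composition. On that scale Btg2, an antiproliferative protein, was the highest member (median 34 over 14 libraries, 23.8 to 63.8), followed by Jun (24.2, 20.1 to 48.3) and Dusp1 (20.1, 11.7 to 32.9). Ier2, Junb, Fos and Egr1 had medians of 11.9, 11.7, 9.86 and 9.68, and their ranges overlapped. Fosl2 (4.96) and Atf3 (3.88) were lower, and Fosb was lowest (0.448, 0.232 to 0.567). Jund, the JUN subunit outside the 10, exceeded them all in median (56.2, 49.2 to 75.5), and the FOS relative Fosl1 had a median of 0.00721.

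Tissue makeup differed between libraries. The bone markers were present throughout, with 8 osteoblast and osteocyte genes summing to 988.3 to 5753 CPM and 6 osteoclast genes to 302 to 1367 CPM. The 7 genes of the central nervous system summed to 557.6 to 1551 CPM in 12 libraries, 149.6 CPM in OVX-PBS replicate 1 and 152 CPM in OVX-HA replicate 2, and in those 2 libraries the myelin gene Mobp read 5.55 and 1.17 CPM. Library totals ran from 11.9 to 35.4 M estimated counts. In bulk RNA, fewer cells of a type and less RNA per cell cannot be told apart. For most of the members' results the value without OVX-PBS replicate 1 is given as well, and for some that without OVX-HA replicate 2.

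**Figure D1:**
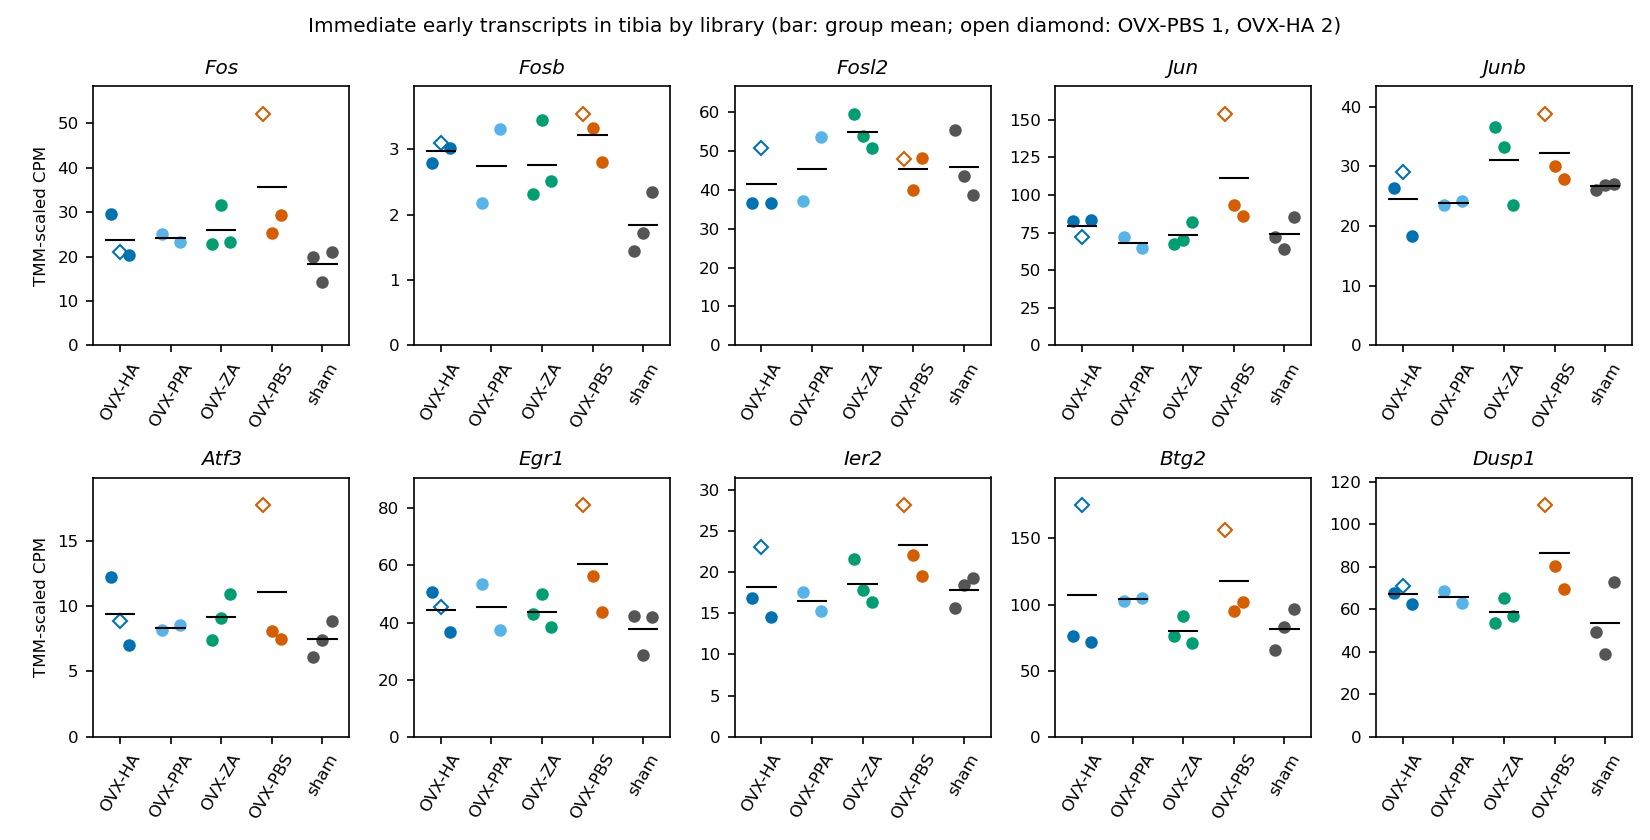
TMM-scaled CPM (vertical axes, linear from 0) of the 10 transcripts in each of the 14 libraries by group, with a bar at the group mean and open diamonds for OVX-PBS replicate 1 and OVX-HA replicate 2. OVX-PBS replicate 1 is the highest library for 8 of the 10 genes.

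What did ovariectomy do to immediate early transcripts? They were higher in OVX-PBS than in sham for 9 of 10 members, as were 51.4% of all genes, with a median log2 difference of 0.57 (Jun, near that median, was 1.5-fold higher), where the median of all 21761 genes was 0.0079. Fos (1.93-fold), Fosb (1.75-fold) and Dusp1 (1.61-fold) differed most, and Fosl2 did not differ by more than its error (0.988-fold). None of the 10 passed the test across all genes (edgeR quasi-likelihood, Benjamini-Hochberg (BH) adjusted p = 0.913 for 9 members and 0.995 for Fosl2), nor did any other gene (0% called). At an unadjusted p below 0.05, 5 of 10 members were higher (Fos, Fosb, Jun, Egr1 and Dusp1), against 1.44% of all genes. DESeq2 also called 0 members and placed 5 of 10 below that unadjusted limit, against 0.856% of the genes it tested. Much of the size came from OVX-PBS replicate 1. Without it the median was 0.27, 9 of 10 members were still above 0, and 3 were below the unadjusted limit, against 0.589% of all genes.

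Fos, the founding FOS subunit, read 52.1, 25.2 and 29.3 CPM in the OVX-PBS libraries (in replicate order here and below), against 19.8, 14.2 and 21.1 CPM in sham. Every OVX-PBS library lay above every sham library, and replicate 1 stood well above the other OVX-PBS libraries. The fitted log2 difference was 0.95 ± 0.266 (standard error; 95% interval 0.37 to 1.53), and 0.57 ± 0.217 without OVX-PBS replicate 1. Fosb, a FOS subunit with a short splice form known for its long life, read 3.54, 3.32 and 2.80 CPM in OVX-PBS, against 1.45, 1.72 and 2.34 CPM in sham. These groups did not overlap either. Its log2 difference of 0.81 ± 0.239 was the least dependent on the outlying library among the larger ones, at 0.74 ± 0.269 without it. Fosl2, a FOS subunit with slower induction, read 47.9, 39.9 and 48.2 CPM in OVX-PBS, against 55.4, 43.4 and 38.7 CPM in sham. The groups overlapped throughout (-0.017 ± 0.18, interval -0.409 to 0.376).

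Jun, the main JUN partner, read 154, 93.2 and 85.8 CPM in OVX-PBS, against 72.3, 64 and 85.5 CPM in sham. The groups were separated by a narrow margin between OVX-PBS replicate 3 and sham replicate 3. The log2 difference was 0.58 ± 0.196, and 0.28 ± 0.141 without OVX-PBS replicate 1. Junb, a JUN subunit that can restrain Jun, read 38.8, 30.1 and 27.8 CPM in OVX-PBS, against 26, 26.9 and 27 CPM in sham. All OVX-PBS values were above all sham values, yet the interval of the difference held 0 (0.27, -0.148 to 0.692), and it was 0.12 ± 0.202 without OVX-PBS replicate 1. Atf3, a stress-induced bZIP factor, read 17.7, 8.10 and 7.52 CPM in OVX-PBS, against 6.13, 7.38 and 8.83 CPM in sham. Here 1 library made the difference, which was 0.57 ± 0.314 with OVX-PBS replicate 1 and 0.069 ± 0.242 without it.

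Egr1, a zinc finger factor induced by growth factors through ERK, read 81, 56.4 and 43.8 CPM in OVX-PBS, against 42.4, 28.7 and 42.1 CPM in sham (log2 difference 0.68 ± 0.235, and 0.41 ± 0.221 without OVX-PBS replicate 1). Its groups did not overlap, although OVX-PBS replicate 3 and sham replicate 1 lay close together. Ier2, a small nuclear protein of the immediate early response, read 28.1, 22.1 and 19.5 CPM in OVX-PBS, against 15.7, 18.4 and 19.3 CPM in sham (0.38 ± 0.189, and 0.23 ± 0.196 without that library). Btg2 read 156, 95 and 102 CPM in OVX-PBS, against 65.4, 82.7 and 96.8 CPM in sham (0.53 ± 0.312, and 0.27 ± 0.326 without it). Btg2 overlapped between the groups by 1 pair of libraries. Dusp1, the phosphatase that switches off p38 and JNK, read 109, 80.6 and 69.7 CPM in OVX-PBS, against 49.5, 38.9 and 72.8 CPM in sham. Sham replicate 3 exceeded OVX-PBS replicate 3, and the log2 difference was 0.69 ± 0.21 (0.48 ± 0.209 without OVX-PBS replicate 1). In all, 6 of 10 members were separated between the groups and higher in OVX-PBS, where 4.03% of all genes were.

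The composition of the FOS family differed between the groups by description. Fos made up 69.5 to 80% of the per-kilobase FOS family level in the OVX-PBS libraries (69.5 and 69.7% in those other than replicate 1) and 55.9 to 67.2% in sham, while Fosl2 made up 17.9 to 27.8% against 30 to 41.5%. Jun made up 34.3% of the JUN family in OVX-PBS replicate 1, 26.7 and 26.8% in the other OVX-PBS libraries and 22.9 to 27.5% in sham. Jund held the larger part of the JUN family in every library (53.7 to 65.8%). Per kilobase, the FOS family summed to 27.7, 15.4 and 17.9 in OVX-PBS and 14.4, 10.8 and 13.3 in sham. The JUN family summed to 141, 109 and 101 in OVX-PBS and 89.1, 87.5 and 97.7 in sham, so the JUN sum exceeded the FOS sum in all of these libraries.

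**Figure D2:**
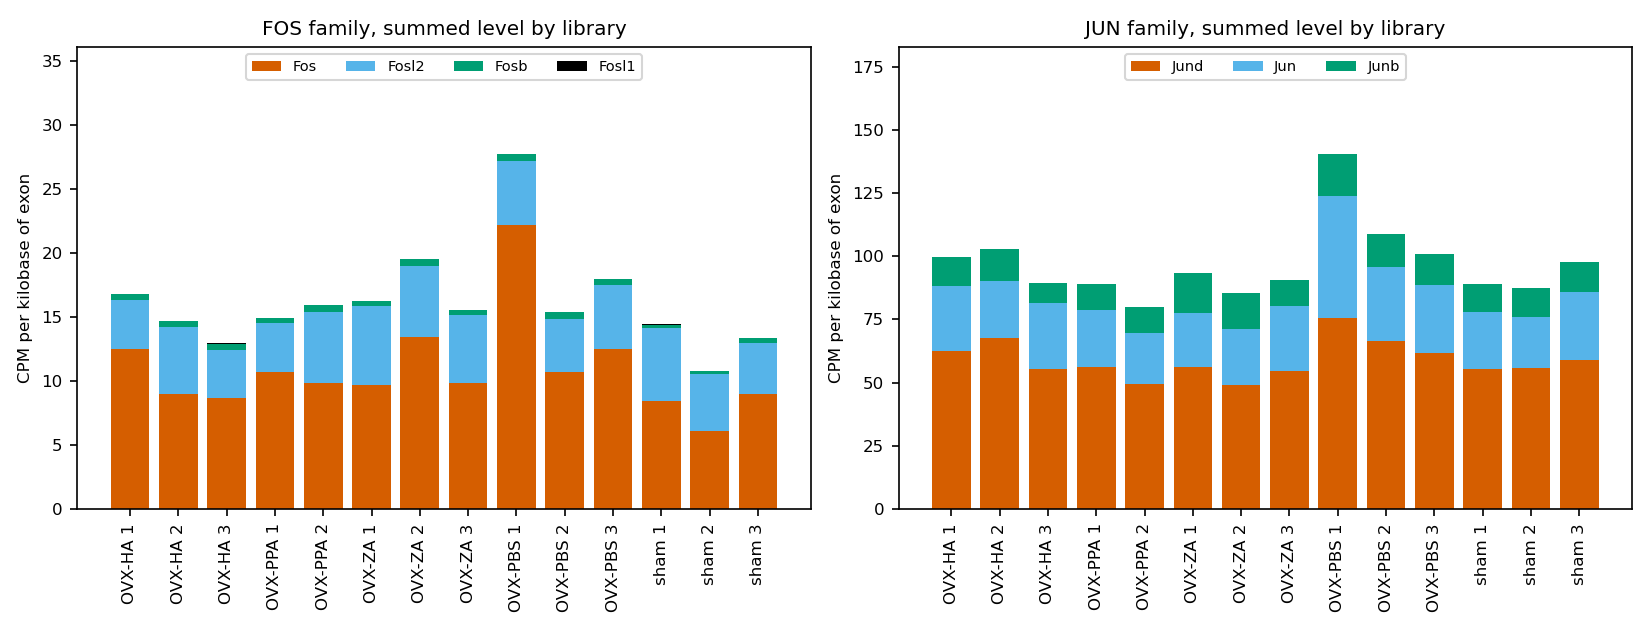
Stacked CPM per kilobase of exon of the FOS family (left) and the JUN family (right) in each library, as bars from 0. Fos and Fosl2 account for nearly all of the FOS family, Jund for 53.7 to 65.8% of the JUN family, and OVX-PBS replicate 1 has the tallest bar in both.

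Other genes of the pathway were described from lists drawn up by role. No list gene passed the test in any of the 5 comparisons. In OVX-PBS against sham the 12 other AP-1 subunits and partners tested had a median log2 difference of 0.09 with 8 above 0, and Jund (0.26 ± 0.109) and Maf (0.29 ± 0.202) had the smallest p. The 7 other EGR and KLF factors had a median of 0.21 with 6 above 0, among them Klf2, a flow-responsive factor of endothelium (0.52 ± 0.186), and Egr3 (0.51 ± 0.251). Of 27 other immediate early feedback and effector genes, 23 were above 0 (median 0.18), with the salt-inducible kinase Sik1 at 0.68 ± 0.214 and the ERK phosphatase Dusp6 at 0.36 ± 0.123. The orphan nuclear receptors Nr4a1 and Nr4a2 differed by 0.77 ± 0.236 and 0.45 ± 0.281. The 18 upstream kinases and SRF, ETS and CREB factors had a median of 0.01, with 9 above and 9 below 0; Crem, a cyclic AMP responsive factor, was at 0.34 ± 0.152 and Creb1 at 0.17 ± 0.112. Among 12 bone and matrix genes known as AP-1 targets 9 were above 0 (median 0.09), with the chemokine Ccl2 at 0.78 ± 0.293 and the collagenase relative Mmp3 at 0.82 ± 0.441. Without OVX-PBS replicate 1, 18 of the 27 feedback and effector genes were above 0 (median 0.069), and the medians were 0.052 for the other AP-1 genes, 0.2 for the EGR and KLF factors and 0.056 for the targets. Egr3 was then at 0.28 ± 0.254, Nr4a2 at 0.24 ± 0.296, Crem at 0.21 ± 0.154, Maf at 0.19 ± 0.226 and Mmp3 at 0.55 ± 0.478, while Sik1 (0.61 ± 0.241), Klf2 (0.47 ± 0.213), Dusp6 (0.37 ± 0.142), Nr4a1 (0.66 ± 0.26) and Ccl2 (0.95 ± 0.305) moved by less than 1.5 times.

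Markers of other tissues also differed between OVX-PBS and sham. None of these marker genes passed. All 7 central nervous system genes were lower in OVX-PBS (median log2 difference -0.94, summed level 149.6 to 988.8 CPM against 697.9 to 1551 CPM), and none was at 0 in any library. All 7 tendon and periosteum genes were higher (median 0.51, summed level 637.3 to 935.8 CPM against 462.4 to 668.8 CPM), as were all 5 B cell genes (0.75) and all 7 muscle genes (0.38). Of 7 heat shock genes 6 were higher (median 0.19, summed level 1095 to 1256 CPM against 992.2 to 1113 CPM). OVX-PBS replicate 1 had the highest heat shock sum of the 14 libraries. Of 5 glucocorticoid response genes 3 were higher and 2 lower (median 0.16, and 0.185 without OVX-PBS replicate 1). At an unadjusted p below 0.05 (edgeR quasi-likelihood) 2 of these were higher and 1 lower, against 1.44 and 1.29% of all genes. The farthest medians among these lists included those of the 3 hepatocyte genes (-2.64), the 4 lymph node vessel genes (-1.62) and the 4 T cell genes (-0.82), all lower in OVX-PBS. In sham the lymph node vessel sums were 21.06, 22.79 and 92.3 CPM (OVX-PBS 22.87 to 26.68). The T cell sums were 6.934, 9.464 and 26.79 CPM (OVX-PBS 6.747 to 10.69), so sham replicate 3 alone lay above OVX-PBS for these lists. The hepatocyte sums were low, at 15.61, 16.17 and 1.118 CPM in sham and 0.3431 to 2.741 CPM in OVX-PBS. Without OVX-PBS replicate 1 the medians were -0.43 for nervous system, 0.21 for tendon, 0.24 for muscle, 0.079 for heat shock and 0.86 for B cell genes, and -2.23, -1.49 and -0.78 for the hepatocyte, lymph node vessel and T cell genes. The share of counts from the mitochondrial genome ran from 9.96 to 15.7% over the 14 libraries, with the highest value in OVX-PBS replicate 1. The part of these differences in the immediate early result was not tested; without both libraries low in nervous tissue transcripts the members' median was 0.29.

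Did the compounds alter these transcripts in ovariectomized mice? All 3 were set against the same OVX-PBS libraries, which were also the ones set against sham. These comparisons are therefore not independent of each other or of the one with sham, and each rests in part on OVX-PBS replicate 1. The members were lower than OVX-PBS in 10 of 10 cases with hippuric acid (median log2 difference -0.36), 9 of 10 with 3-(3-hydroxyphenyl)propionic acid (-0.40) and 9 of 10 with zoledronic acid (-0.39), where the medians of all genes were 0.014, -0.018 and -0.037. Of all genes, 46.8, 53 and 56.2% were below OVX-PBS. Jun was the member farthest below in OVX-PPA and OVX-ZA and the one with the smallest p in each of the 3. No member passed the test across all genes (edgeR quasi-likelihood, BH adjusted p = 1 in OVX-HA and OVX-PPA and at least 0.899 in OVX-ZA), and 0% of all genes were called in each. At an unadjusted p below 0.05, 2 of 10 members were lower in each comparison, against 0.823, 1.26 and 2.04% of all genes. DESeq2 gave 0 called members and 2 at the unadjusted limit in each, against 0.411, 0.734 and 0.877% of the genes it tested. Without OVX-PBS replicate 1 the medians were -0.17, -0.16 and -0.15, with 8, 7 and 7 of 10 members below 0. The counts at the unadjusted limit were then 0, 1 (Jun) and 0 of 10, against 0.331, 0.566 and 0.911% of all genes. For OVX-HA without its replicate 2 the median was -0.43 and the count 3 of 10, against 6.87% of all genes.

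Tissue markers differed in these comparisons too, and none passed. All 7 central nervous system genes were above OVX-PBS with each compound (median log2 difference 0.62, 0.87 and 0.61, and 0.16, 0.39 and 0.11 without OVX-PBS replicate 1). Their summed level was 152 to 1532 CPM in OVX-HA, 1166 to 1339 CPM in OVX-PPA and 557.6 to 1270 CPM for OVX-ZA, against 149.6 to 988.8 CPM in OVX-PBS. All 7 tendon and periosteum genes were below OVX-PBS in OVX-PPA (median -0.20) and OVX-ZA (-0.30), and 5 of 7 in OVX-HA (-0.097). These medians were -0.08, -0.058 and 0.03 without OVX-PBS replicate 1. In OVX-ZA all 6 erythroid genes (-0.62) and all 5 B cell genes (-0.71) were lower, and all 4 T cell genes (1.18) and 4 lymph node vessel genes (1.56) were higher. Of 8 osteoblast and osteocyte genes 5 were lower and 3 higher in OVX-ZA (median -0.33, and -0.18 without OVX-PBS replicate 1). Their summed level was 988.3 to 1650 CPM there, against 2909 to 3958 CPM in OVX-PBS. T cell genes summed to 16, 27.97 and 5.818 CPM in OVX-ZA, and lymph node vessel genes to 52.28, 105.1 and 15.35 CPM. OVX-ZA replicate 3 was thus below the OVX-PBS ranges of 6.747 to 10.69 CPM and 22.87 to 26.68 CPM. The part of these tissue markers in the immediate early values was not tested.

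**Figure D3:**
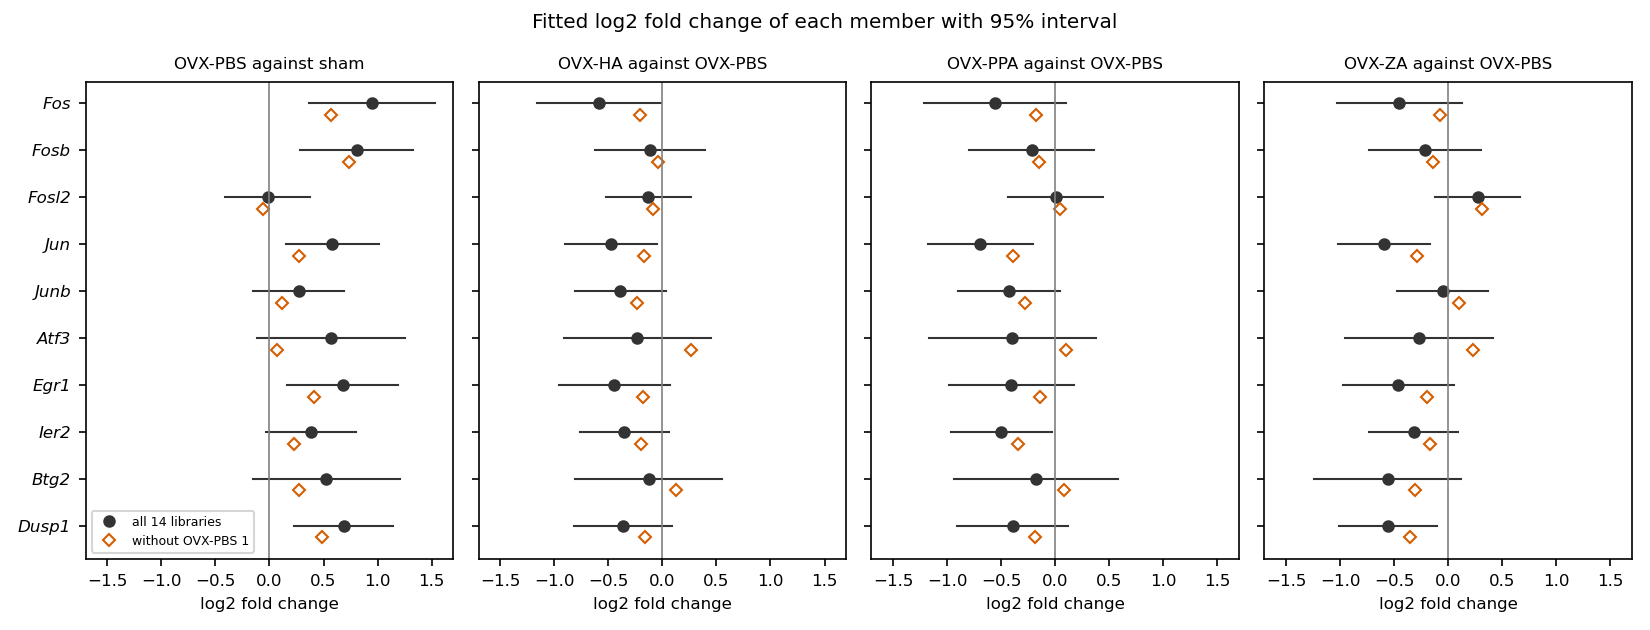
Fitted log2 fold changes (horizontal axis) of each member in 4 comparisons, as filled points with 95% intervals from all 14 libraries and open diamonds from the fit without OVX-PBS replicate 1. Most diamonds lie closer to 0 than the points, and Fosl2 stays near 0 except in OVX-ZA.

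Jun read 83, 72.1 and 83.7 CPM in OVX-HA, 72.2 and 64.6 CPM in OVX-PPA, and 67.2, 70.2 and 82.2 CPM in OVX-ZA, against 154, 93.2 and 85.8 CPM in OVX-PBS. Every treated library (highest 83.7 CPM) was below every OVX-PBS library (lowest 85.8 CPM) and within or near the sham range of 64 to 85.5 CPM. The share of all genes with this pattern was not computed. The log2 difference was -0.48 ± 0.196 with hippuric acid, -0.70 ± 0.223 with 3-(3-hydroxyphenyl)propionic acid and -0.60 ± 0.197 with zoledronic acid, and without OVX-PBS replicate 1 it was -0.17 ± 0.141, -0.39 ± 0.156 and -0.29 ± 0.141. Fos read 29.5, 21 and 20.3 CPM in OVX-HA, 25.1 and 23.2 CPM in OVX-PPA, and 22.8, 31.6 and 23.2 CPM in OVX-ZA. Both OVX-PPA libraries were just below the lowest OVX-PBS library (25.2 CPM), while OVX-HA replicate 1 and OVX-ZA replicate 2 overlapped OVX-PBS. The log2 differences for Fos were -0.59 ± 0.264, -0.56 ± 0.3 and -0.45 ± 0.265 in the same order of compounds, and -0.21, -0.18 and -0.074 without OVX-PBS replicate 1.

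Dusp1 read 67.8, 71 and 62.5 CPM in OVX-HA, 68.6 and 63 CPM in OVX-PPA, and 53.8, 65.3 and 57.1 CPM in OVX-ZA, against 109, 80.6 and 69.7 CPM in OVX-PBS. It was separated from OVX-PBS in OVX-PPA and OVX-ZA and not in OVX-HA, with log2 differences of -0.39 ± 0.236 in OVX-PPA, -0.56 ± 0.21 in OVX-ZA and -0.36 ± 0.209 in OVX-HA. These were -0.19 ± 0.231, -0.36 ± 0.209 and -0.16 ± 0.21 without OVX-PBS replicate 1. Fosb read 2.79, 3.10 and 3.02 CPM in OVX-HA, 2.17 and 3.31 CPM in OVX-PPA, and 2.31, 3.44 and 2.52 CPM in OVX-ZA. Each group overlapped the OVX-PBS range of 2.80 to 3.54 CPM. OVX-PPA replicate 1 and OVX-ZA replicate 1 lay within the sham range of 1.45 to 2.34 CPM. The intervals of Fosb held 0 in all 3 comparisons (widest -0.799 to 0.359). Its differences were -0.11, -0.22 and -0.21, and -0.042, -0.15 and -0.14 without OVX-PBS replicate 1. Egr1 read 50.6, 45.6 and 36.7 CPM in OVX-HA, 53.6 and 37.4 CPM in OVX-PPA, and 43, 50 and 38.5 CPM in OVX-ZA. It overlapped OVX-PBS in each (-0.44 ± 0.235, -0.41 ± 0.265 and -0.46 ± 0.235), and without OVX-PBS replicate 1 the differences were -0.18 ± 0.221, -0.14 ± 0.244 and -0.19 ± 0.222.

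Junb read 26.3, 29.1 and 18.3 CPM in OVX-HA, 23.6 and 24.2 CPM in OVX-PPA, and 36.6, 33.2 and 23.6 CPM in OVX-ZA. Its log2 difference from OVX-PBS was -0.39 ± 0.193 in OVX-HA and -0.43 ± 0.219 in OVX-PPA, and -0.051 ± 0.193 in OVX-ZA. These were -0.24 ± 0.202, -0.28 ± 0.223 and 0.10 ± 0.204 without OVX-PBS replicate 1. Ier2 read 16.9, 23.1 and 14.5 CPM in OVX-HA, 17.6 and 15.3 CPM in OVX-PPA, and 21.6, 17.8 and 16.4 CPM in OVX-ZA. Ier2 was separated from OVX-PBS in OVX-PPA alone (-0.50 ± 0.215), with -0.35 ± 0.189 in OVX-HA and -0.32 ± 0.19 in OVX-ZA. Without OVX-PBS replicate 1 these were -0.34 ± 0.217, -0.20 ± 0.196 and -0.16 ± 0.197, and without OVX-HA replicate 2 the OVX-HA difference was -0.57 ± 0.162. OVX-HA against OVX-PPA gave 0.14 ± 0.213 for Ier2 (interval -0.319 to 0.608), and other pairs of compounds were not compared. Atf3 read 12.2, 8.87 and 7.01 CPM in OVX-HA, 8.14 and 8.56 CPM in OVX-PPA, and 7.42, 9.07 and 10.9 CPM in OVX-ZA. Its differences of -0.23, -0.40 and -0.27 all turned positive without OVX-PBS replicate 1 (0.26, 0.097 and 0.23), since the other OVX-PBS libraries read 8.10 and 7.52 CPM.

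Btg2 had the widest spread of the members in OVX-HA. It read 76, 175 and 71.5 CPM there, where OVX-HA replicate 2, low in nervous tissue transcripts, gave the highest value of all 14 libraries. OVX-PPA read 103 and 105 CPM and OVX-ZA 76.6, 91.3 and 71.3 CPM, so the OVX-ZA libraries were all below OVX-PBS (log2 difference -0.56 ± 0.312, and -0.30 ± 0.327 without OVX-PBS replicate 1). In OVX-HA the difference was -0.13 ± 0.311, and -0.67 ± 0.199 without OVX-HA replicate 2. Fosl2 went against the other members in OVX-ZA, at 59.5, 53.9 and 50.7 CPM, above all 3 OVX-PBS libraries (0.27 ± 0.181, interval -0.122 to 0.665). It read 36.7, 50.8 and 36.7 CPM in OVX-HA and 37.1 and 53.6 CPM in OVX-PPA. Separation from OVX-PBS was seen for 1 member in OVX-HA (Jun, lower, as in 1.83% of all genes), 5 members in OVX-PPA (Fos, Jun, Junb, Ier2 and Dusp1, lower, 8.77%) and 4 members in OVX-ZA (Jun, Dusp1 and Btg2, lower, 9.96%; Fosl2, higher, 4.21%).

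Among the other AP-1 genes Jdp2, a repressor partner of JUN that is expressed in osteoclasts, stood out in OVX-ZA. It read 39.9, 27.2 and 34.5 CPM in OVX-ZA and 16.8, 16.7 and 20.5 CPM in OVX-PBS, with no overlap. Its log2 difference of 0.91 ± 0.186 (0.86 ± 0.217 without OVX-PBS replicate 1) did not pass (BH adjusted p = 0.447, edgeR). It was named after its value was seen, and the 6 osteoclast markers were also higher in OVX-ZA (median 1.35, summed level 748.1 to 1367 CPM against 464.5 to 496.5 CPM); their part in this was not tested. Jund was below OVX-PBS in OVX-PPA (-0.37 ± 0.123) and OVX-ZA (-0.35 ± 0.109), with -0.14 ± 0.109 in OVX-HA. The other immediate early feedback and effector genes were below 0 in 22 of 27 cases for OVX-HA, 21 for OVX-PPA and 20 for OVX-ZA, with medians of -0.09, -0.17 and -0.17 (-0.07, -0.077 and -0.093 without OVX-PBS replicate 1). All 7 heat shock genes were below OVX-PBS in OVX-PPA (median -0.34) and OVX-ZA (-0.34) and 5 of 7 in OVX-HA (-0.055), and without OVX-PBS replicate 1 the medians were -0.20, -0.25 and 0.076. The upstream kinases and factors had medians of 0.011, -0.014 and 0.037. The 12 AP-1 targets had medians of -0.165, -0.025 and -0.019 (-0.11, -0.076 and 0.034 without OVX-PBS replicate 1). In OVX-ZA 6 targets were above and 6 below 0, from -1.77 to 1.42. At an unadjusted p below 0.05 (edgeR quasi-likelihood) 4 were higher and 1 lower there, against 1.32 and 2.04% of all genes. The target list shares Acp5 with the osteoclast markers and Bglap with the osteoblast markers.

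Hippuric acid carries a glycine amide on an unsubstituted ring, and 3-(3-hydroxyphenyl)propionic acid a ring hydroxyl and a propionic acid chain. The labels give no dose for either, and the treatment time was the same. The 10 members did not separate OVX-HA from OVX-PPA in any case (0 of 10, against 10.3% of all genes). The median log2 difference was 0.045, beside 0.021 for all genes, and 7 of 10 members were above 0, as were 55.3% of all genes. The largest was Jun at 0.22 ± 0.22 (interval -0.26 to 0.699), and the smallest in size was Dusp1 at 0.028 ± 0.234 (-0.481 to 0.537). The intervals of Fos (-0.676 to 0.61) and Btg2 (-0.707 to 0.808) were as wide or wider. No member was called (edgeR, BH adjusted p = 1; 0 at an unadjusted p below 0.05, against 1.19% of all genes; DESeq2 0), and this is the 1 pair of related compounds compared. Without OVX-HA replicate 2 the difference in Btg2 was -0.54 ± 0.215, and Btg2 was then the 1 member below the unadjusted limit, lower as were 4.32% of all genes.

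A joint test for any difference among the 5 groups called 0 of 10 members (edgeR quasi-likelihood, BH adjusted p = 1 each), with 0.0046% of all genes called (1 gene, the osteoclast fusion factor Ocstamp, named after its value was seen). By group means, 9 of 10 members were highest in OVX-PBS and 1, Fosl2, in OVX-ZA (the share of all genes was not computed). Without OVX-PBS replicate 1 the count in OVX-PBS was 6. Junb was then highest in OVX-ZA (31.1 CPM, against 29 CPM in OVX-PBS), and Atf3 (9.37 against 7.81 CPM) and Btg2 (108 against 98.4 CPM) in OVX-HA. Over all 14 libraries sham had the lowest mean for 5 members (Fos, Fosb, Egr1, Dusp1 and Atf3), OVX-PPA for 3, OVX-HA for Fosl2 and OVX-ZA for Btg2. Fos averaged 23.6 ± 5.16 CPM in OVX-HA, 24.1 ± 1.31 CPM in OVX-PPA, 25.9 ± 4.99 CPM in OVX-ZA, 35.6 ± 14.5 in OVX-PBS and 18.4 ± 3.68 in sham (SD, n = 3 each, 2 for OVX-PPA). In the same order Jun averaged 79.6 ± 6.54, 68.4 ± 5.34, 73.2 ± 7.95, 111 ± 37.1 and 74 ± 10.8 CPM. Among the 3 compounds the Fos means lay within these spreads of each other. The Jun mean of OVX-HA was above that of OVX-PPA by more than either SD, while their libraries overlapped.

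Most pairs of members varied together between libraries of the same group. Of 45 pairs, 40 had deviations from the group mean of log2 CPM that went the same way on balance over the 14 libraries (median Pearson correlation 0.39), and 33 did over the 12 libraries left without OVX-PBS replicate 1 and OVX-HA replicate 2 (median 0.233). These are descriptions over libraries that share a scaling step, and the share of such pairs among all genes was not computed. They do not show that varying together is particular to the members. Junb with Ier2 (0.829), Ier2 with Btg2 (0.826) and Fos with Egr1 (0.811) were the closest pairs over 14 libraries, and Fosl2 with Jun was the most opposed (-0.248). Over the 12 libraries these read 0.717, 0.419, 0.731 and -0.584, and Jun with Dusp1 was closest (0.768). Set against the mean of the other 9 members, Dusp1 (0.783), Fos (0.728) and Egr1 (0.721) followed it most and Fosl2 least (0.052) over 14 libraries, where the 12 libraries gave 0.758, 0.728, 0.556 and -0.42. OVX-PBS replicate 1 was the top library for 8 members, and sham replicate 1, sham replicate 2 and OVX-HA replicate 3 were the bottom library for 3, 4 and 3 members. The shares over all genes were not computed for these counts.

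The genes most alike to the members' mean deviation among 13618 candidates with at least 5 CPM were Ntn4 (0.918), Cox20 (0.899), Fabp3-ps1 (0.898), Zkscan3 (0.895), Diablo (0.89) and Ptcd1 (0.879) over 14 libraries. Over the 12 libraries these likenesses were 0.686, 0.701, 0.705, 0.835, 0.791 and 0.763. All 6 read highest or second highest in OVX-PBS replicate 1, and Ntn4, a basement membrane netrin, read 30 CPM there against 16.3 to 22.9 CPM in the other 13 libraries.

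**Figure D4:**
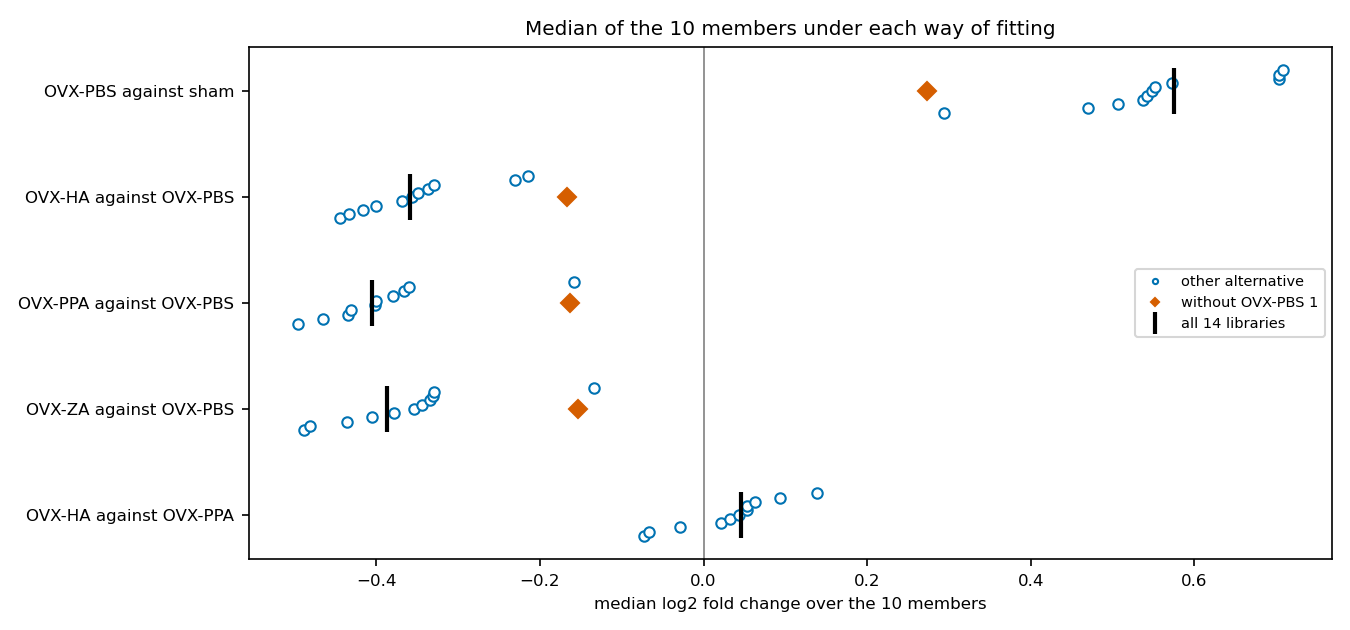
Median log2 fold change of the 10 members (horizontal axis) in 5 comparisons, with a black bar for all 14 libraries, a filled diamond for the fit without OVX-PBS replicate 1 and open circles for the other ways of fitting, one of which also leaves that library out. The medians keep their direction in the 4 upper comparisons, each nearest to 0 in a fit that leaves out OVX-PBS replicate 1. They lie on both sides of 0 for OVX-HA against OVX-PPA.

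In the mm10 annotation (GENCODE M21) all 10 members are protein-coding genes. Fos (ENSMUSG00000021250) spans chromosome 12, 85473890-85477273, + strand, and Fosb (ENSMUSG00000003545) chromosome 7, 19302696-19310051, - strand. Jun (ENSMUSG00000052684) spans chromosome 4, 95049034-95052222, - strand, and Fosl2 (ENSMUSG00000029135) chromosome 5, 32135801-32157842, + strand. Junb (ENSMUSG00000052837, 84974484-84978718) and Ier2 (ENSMUSG00000053560, 84661331-84662852) both lie on the - strand of chromosome 8, and Btg2 (ENSMUSG00000020423, 134075170-134079120) and Atf3 (ENSMUSG00000026628, 191170296-191218039) on the - strand of chromosome 1. Egr1 (ENSMUSG00000038418) spans chromosome 18, 34859823-34864984, + strand, and Dusp1 (ENSMUSG00000024190) chromosome 17, 26505590-26562128, - strand. The Dusp1, Atf3 and Fosl2 spans, and the Fosb span by a few bases, begin upstream of the RefSeq start sites. The promoter windows searched for Dusp1, Atf3 and Fosl2 thus lie inside the annotated genes.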

How the data were processed

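RNA from 14 tibia libraries was prepared with a stranded poly(A) mRNA kit and read as single 75 nt reads, per the labels' protocols. Upstream tools, per the submitters' processing notes, were STAR 2.7.8a, Bowtie2 2.2.5, CASAVA 1.8.1 and Partek on the build mm10, each with no stated role; which program counted, with what annotation and whether by strand, is not given in the sources used here. The authors deposited estimated counts per gene symbol, not normalized (20.7% are not whole within 0.01). The authors also deposited log2 TMM-normalized values, which were not used for any test. All columns matched a sample title.

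Estimated counts were rounded, filtered with edgeR's filterByExpr by group (21761 genes kept) and scaled by TMM. One edgeR 4.0.16 (R 4.3.3) quasi-likelihood fit over the 14 libraries held a mean per group and no covariate (9 residual degrees of freedom, common biological coefficient of variation 25%). It gave 5 two-sided comparisons and 1 joint test, each BH adjusted over all genes with an FDR of 0.05. Errors of log2 differences are standard errors and intervals are 95% from that fit; log2 CPM used a prior count of 2. Library totals of 11.9 to 35.4 M counts give Fosb, the lowest member, the least counting precision.

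The alternatives were DESeq2 1.42.0, upper quartile scaling, no filter, a fit of only the groups compared, a replicate block, leaving out each library, and leaving out OVX-PBS replicate 1 with OVX-HA replicate 2. The main fit did not pair samples by replicate number. The scripts were checked on simulated counts. The members, lists, tests and rules were chosen with earlier results of these data known. All 10 members were named. Of each wider list the genes that passed were to be named, or else the 2 with the smallest p in OVX-PBS against sham. The 6 genes most alike, with at least 5 CPM, were also named.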

Additional observations from a re-analysis of the deposited data

How the results depend on the processing

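Every alternative called 0 of the 10 members in each comparison and in the joint test. The members' median kept its direction in the 4 comparisons with sham or OVX-PBS. Leaving out single libraries gave medians of 0.2732 to 0.7085 for OVX-PBS against sham, -0.4438 to -0.1665 for OVX-HA, -0.4957 to -0.1625 for OVX-PPA and -0.488 to -0.1527 for OVX-ZA against OVX-PBS, and -0.07272 to 0.1385 for OVX-HA against OVX-PPA. The values nearest 0 in the first 4 were those that left OVX-PBS replicate 1 out. With OVX-HA replicate 2 left out as well, the median in OVX-PBS against sham was 0.2936.

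Counts over all genes moved for OVX-ZA against OVX-PBS, where 0 genes became 29 with DESeq2, 3 with no filter, 1 with only the groups compared, 6 without both libraries, and 0 to 1 when single libraries were left out. In the joint test 1 gene became 5 with no filter, 0 with the replicate block, 5 without both libraries, and 0 to 7 when single libraries were left out. The causes were not tested.

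Some single members, none called, turned direction. With single libraries left out their log2 differences ranged as follows. The range was Fosl2 -0.1239 to 0.1419 for OVX-PBS against sham. For OVX-HA against OVX-PBS the ranges were Atf3 -0.4545 to 0.2647 and Btg2 -0.6702 to 0.1292. For OVX-PPA against OVX-PBS they were Fosb -0.5616 to 0.04365, Atf3 -0.5858 to 0.09729, Fosl2 -0.2857 to 0.2456 and Btg2 -0.3111 to 0.07848. For OVX-ZA against OVX-PBS they were Junb -0.1823 to 0.1149 and Atf3 -0.4544 to 0.229. For OVX-HA against OVX-PPA they were Fos -0.262 to 0.06523, Fosb -0.1573 to 0.4434, Junb -0.1399 to 0.2126, Egr1 -0.2807 to 0.2423, Ier2 -0.1056 to 0.283, Dusp1 -0.05363 to 0.0888, Atf3 -0.1077 to 0.3372, Fosl2 -0.3755 to 0.1502 and Btg2 -0.5359 to 0.2741. Without both libraries, Atf3 was at 0.2756 in OVX-HA, 0.1028 in OVX-PPA and 0.2502 for OVX-ZA, Btg2 at 0.08169 in OVX-PPA and Junb at 0.118 in OVX-ZA, all against OVX-PBS. In the same fit OVX-HA against OVX-PPA gave Fos 0.01343, Junb -0.1328, Ier2 -0.09922, Dusp1 -0.04781 and Btg2 -0.5297. Junb in OVX-ZA was at 0.001623 with no filter and 0.00306 with DESeq2.

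Replicate numbers are shared between groups, and libraries with the same number had correlations of deviations of -0.554 to 0.425. Within groups of 2 or 3 libraries the deviations offset each other, so these values cannot show whether the numbers pair samples. With the replicate block 0 members were called, Fosl2 in OVX-PPA against OVX-PBS was at -0.05877 and Egr1 in OVX-HA against OVX-PPA at 0.05592. With 2 or 3 libraries a group, the width of the intervals set what could be seen.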
